A study of Mus musculus with 8 samples.

Results

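The genes described here are 44 enzymes and regulators of lipid synthesis in the embryonic mouse lung, taken by name from a fixed list. That list was chosen with earlier results of these data known. They were 44 of the 23997 gene symbols in the deposited tables, and each had 1 record in every table. The list held 14 genes of fatty acid synthesis and activation, 10 of glycerolipid and phospholipid synthesis, 15 of sterol synthesis and 5 regulators of these pathways. Each role group was followed in 3 comparisons: E17 against E14, labelled cells against whole lung, and a Sox9 mutant against the wild type.

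All 8 libraries came from embryonic lung of C57BL/6 mice, with TRAP labelling of Sox9 progenitors switched on by tamoxifen. TRAP stands for translating ribosome affinity purification, in which the ribosomes of labelled cells are pulled down, here through the ribosomal protein L10, and the mRNA they carry is sequenced. The wild-type groups with 1 library each were TRAP at E14 (embryonic day 14), whole lung at E14, TRAP at E17 and whole lung at E17. Wild-type TRAP at E16 had 2 libraries. The remaining group was TRAP at E16 from the Sox9 mutant, also with 2 libraries. The labels name neither the driver of the labelling nor the part of Sox9 that the mutation removes, and they do not say whether embryos were pooled. The series design calls the E14 reference a supernatant where its label calls it whole lung, and the E16 titles also carry E13 without explanation. Separate animals are not stated for the replicates, so a p-value measures only the spread between these libraries, which may be technical.

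Cells build fatty acids from cytosolic acetyl-CoA. ATP citrate lyase supplies the acetyl-CoA, acetyl-CoA carboxylase and fatty acid synthase build the chain, and elongases and desaturases lengthen it and add double bonds. Acyl-CoA synthetases activate the fatty acids, acyltransferases place them on glycerol, and choline kinase, phosphocholine cytidyl transferase and choline phosphotransferase complete phosphatidylcholine, the main lipid of pulmonary surfactant. The mevalonate pathway makes isoprenoid units that are joined to squalene, closed to lanosterol and trimmed to cholesterol. The SREBP transcription factors, escorted by SCAP and held back by the INSIG proteins when sterols are plentiful, drive the genes of both pathways. Before birth the distal lung epithelium matures into alveolar type 2 cells, which make surfactant, and fibroblasts beside it store neutral lipid.

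The values are FPKM, fragments normalised to transcript length and to the fragments mapped in the library, so levels of different genes can be set side by side per length. Between 9783768 and 21500523 fragments lay behind a library, as inferred from the deposited confidence bounds, and a member's value rested on a median of 834.5 fragments. Only 6 of the 352 member values rested on under 100 fragments, and the fewest were 14, for Lpin1 in E14 TRAP. In wild-type replicate 1 the microRNA record Mir762 held 50.05% of the summed FPKM, and in E17 TRAP it held 33.95%, so a scaling to equal totals moves every gene in these libraries. Sox9 stood at 63.9 and 68.5 FPKM in TRAP at E14 and E17 against 15.0 and 16.7 in whole lung, and at 35.9 and 36.4 in the E16 wild type against 12.8 and 11.0 in the mutant. All 8 epithelial markers examined were higher in TRAP than in whole lung and all 6 mesenchymal markers were lower, by limma with Benjamini-Hochberg adjustment.

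Across the 8 libraries the members ranged from under 1 to over 200 FPKM. Scd2, a stearoyl-CoA desaturase that puts the first double bond into saturated fatty acids, was the most abundant member in every library. It had 221 FPKM in TRAP and 166 in whole lung at E14, and 203 in TRAP and 152 in whole lung at E17. At E16 it had 177 and 172 FPKM in wild-type and 134 and 128 FPKM in mutant libraries. Its paralogue Scd1 had 4.36, 4.79, 3.996 and 3.08 FPKM in the same 4 libraries of E14 and E17. Fdps, which encodes farnesyl diphosphate synthase, ranked next in 7 libraries and Fads2, the desaturase that opens polyunsaturated fatty acid synthesis, in E14 whole lung. The lowest member was Lpin1, a phosphatidate phosphatase, at 0.24 to 1.59 FPKM. It failed the minimum mean of 1 FPKM in every fit, which left 43 of the 44 members in each test.

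Summed over a role group, the levels moved in different directions. The sterol genes summed to 459 FPKM in TRAP at E14 and 277 at E17, and to 349 and 251 in whole lung. The phospholipid genes summed to 87.7 FPKM in TRAP at E14 and 140.4 at E17, and to 96.6 and 126 in whole lung. The fatty acid genes summed to 587 and 501 FPKM in TRAP and 465 and 385 in whole lung, with Scd2 the largest term. At E16 the sums of the wild type and the mutant lay close together, at 453 and 429 against 469 and 461 FPKM for the fatty acid genes and at 369 and 381 against 351 and 341 for the sterol genes.

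**Figure D1:**
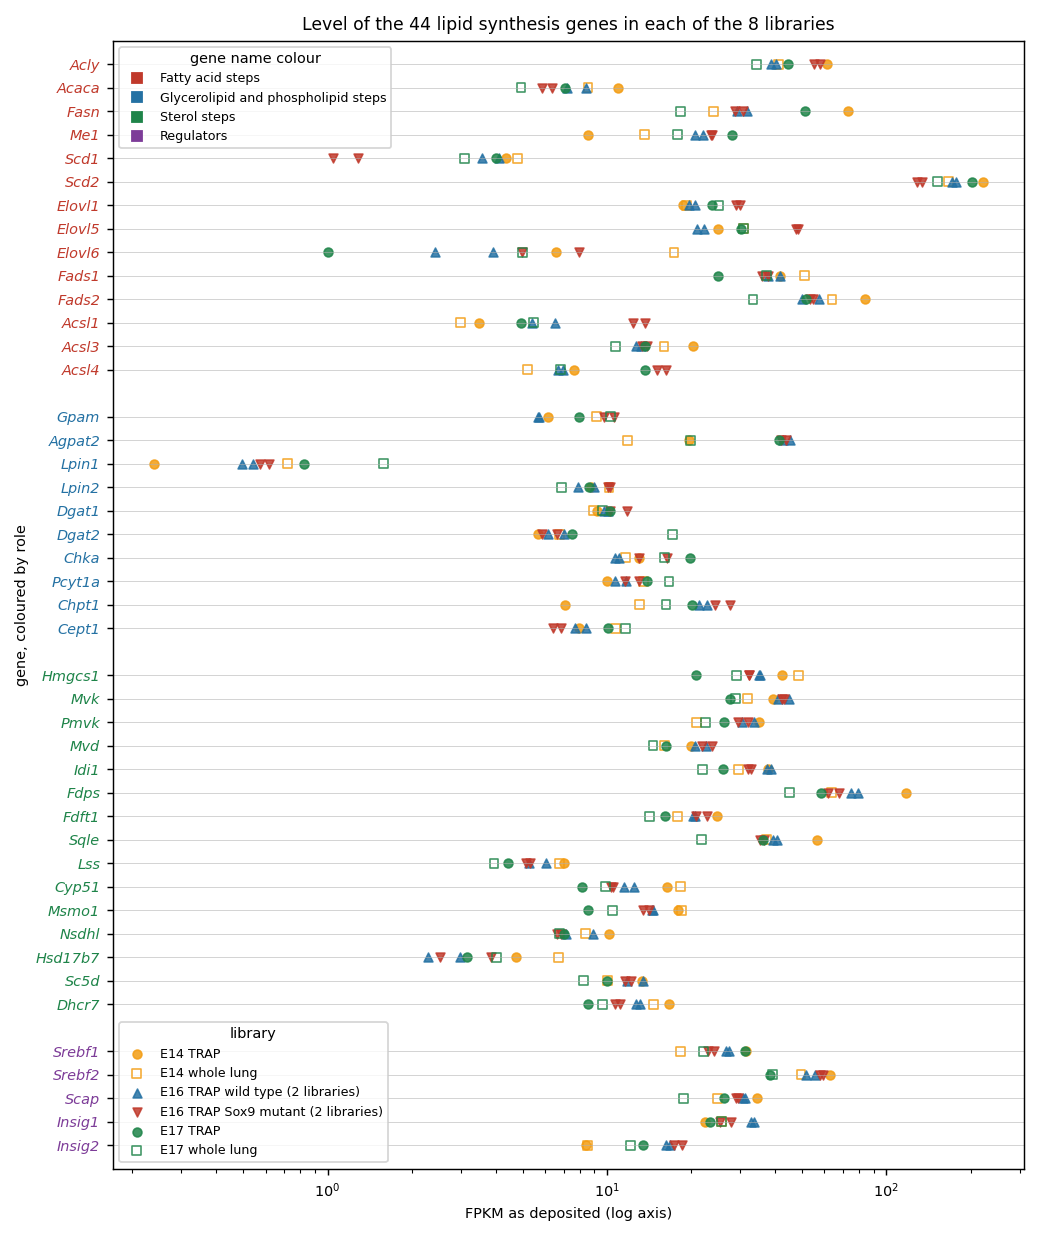
FPKM of each of the 44 genes (log axis, gene names coloured by role) in the 8 libraries, with filled symbols for TRAP and open squares for whole lung. Scd2 lies farthest right in every library, Lpin1 farthest left in every library, and 14 of the 15 sterol genes shift left from the E14 to the E17 symbols in both fractions, with Pmvk the exception in whole lung.

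The first comparison asked how lipid synthesis mRNA differed between E14 and E17. Sterol genes were lower at E17. Of the 15 sterol genes, 8 fell and 0 rose, and the median log2 difference of the group was -0.55. Of 9 phospholipid genes tested, 2 rose and 0 fell, with a median of 0.36, and of 14 fatty acid genes 6 fell and 0 rose, with a median of -0.33. Over all 12320 records tested the median was 0.01, 9.51% were called higher (1172) and 6.36% lower (783), and after rescaling to a common total 511 and 613. The counts come from limma on log2(FPKM + 1), fitted to the 4 libraries of E14 and E17 with fraction as an additive term, at a Benjamini-Hochberg adjusted p under 0.05. With 1 library per stage and fraction the error is the disagreement between TRAP and whole lung, on 1 residual degree of freedom. Upward differences of 4 fatty acid genes had an unadjusted limma p under 0.05, and limma-voom on inferred fragments called 0 of them. For sterol genes upward and phospholipid genes downward both counts were 0.

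Within the sterol pathway the falls reached from the entry to the last step. Cyp51, the lanosterol demethylase (chr5:4080674-4104697, mm10), had 16.4 FPKM in TRAP and 18.4 in whole lung at E14, and 8.15 in TRAP and 9.86 in whole lung at E17 (log2 -0.88, SE 0.12, adjusted p = 0.0155). Msmo1, a methylsterol monooxygenase that acts later in the pathway, had 17.9 FPKM in TRAP and 18.5 in whole lung at E14, and 8.57 in TRAP and 10.5 in whole lung at E17 (log2 -0.87, SE 0.12, adjusted p = 0.0178). In both genes the E17 libraries lay below the E14 libraries, and whole lung lay slightly above TRAP at each stage. Hmgcs1, the cytosolic HMG-CoA synthase at the head of the mevalonate pathway (chr13:119690351-119708260), had 42.4 FPKM in TRAP and 48.5 in whole lung at E14, and 20.8 in TRAP and 29.1 in whole lung at E17. Its difference was -0.85 on the log2 scale (SE 0.11, limma adjusted p = 0.015), and in this gene whole lung lay above TRAP at each stage. Fdps had 118 FPKM in TRAP and 63.8 in whole lung at E14, and 58.4 in TRAP and 44.9 in whole lung at E17 (log2 -0.75, SE 0.14, adjusted p = 0.0298). Here E14 TRAP stood apart from the other 3 libraries, and the fall was 2.00-fold in TRAP and 1.41-fold in whole lung as FPKM + 1.

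Sqle, the squalene epoxidase whose product is closed to lanosterol, had 56.2 FPKM in TRAP and 37.3 in whole lung at E14, and 36.2 in TRAP and 21.7 in whole lung at E17 (log2 -0.69). Dhcr7, the reductase of the last step to cholesterol, had 16.6 FPKM in TRAP and 14.7 in whole lung at E14, and 8.56 in TRAP and 9.61 in whole lung at E17 (log2 -0.72). Idi1, the isopentenyl diphosphate isomerase, had 37.7 FPKM in TRAP and 29.6 in whole lung at E14, and 25.9 in TRAP and 22 in whole lung at E17 (log2 -0.47). These 3 genes passed with limma adjusted p values from 0.0185 to 0.0396, and each was lower at E17 in both fractions. Lss, the lanosterol synthase, was the eighth gene to pass (log2 -0.60, limma adjusted p = 0.0487), at 6.99 and 6.75 FPKM at E14 against 4.43 and 3.94 at E17. The call was lost in 6 of 9 alternatives for Lss and in 5 of 9 for Idi1.

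The other 7 sterol genes did not pass, although their fitted differences were also negative, from -0.15 for Pmvk to -0.55 for Hsd17b7. Pmvk, the phosphomevalonate kinase, was the exception by fraction. It had 35.1 FPKM in TRAP and 20.9 in whole lung at E14, and 26.2 in TRAP and 22.5 in whole lung at E17, lower at E17 in TRAP (log2 -0.41) and slightly higher in whole lung (0.10). Hsd17b7, a ketoreductase of sterol demethylation, had 4.74 FPKM in TRAP and 6.72 in whole lung at E14, and 3.15 in TRAP and 4.02 in whole lung at E17. Nsdhl, the dehydrogenase of the same demethylation, had 10.2 FPKM in TRAP and 8.39 in whole lung at E14, and 7.04 in TRAP and 6.78 in whole lung at E17. Mvk, Mvd and Fdft1, the mevalonate kinase, the mevalonate diphosphate decarboxylase and the squalene synthase, and Sc5d, the lathosterol desaturase, had fitted differences of -0.32, -0.21, -0.45 and -0.32. Counted by direction alone, 14 of the 15 sterol genes were lower at E17 in both fractions, beside 37.1% of all records. The group median stayed below 0 in each of the 9 alternatives, between -0.37 and -0.76, and rescaling each library to a common total moved the median of all records to -0.23. The count of sterol genes that fell ran from 0 to 10, being 0 with no filter on low values.

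The windows upstream of the start of 3 of these sterol genes are printed because the genes moved together between stages. They come from the RefSeq promoter table, which holds 250 bases before and 50 after a gene's start (build GRCm38.p6), and 36 of the 44 members matched by symbol. Sqle, Fdps, Fdft1, Scd1, Scd2, Fads1, Dgat1 and Dgat2 had no entry. The 250 upstream bases of Hmgcs1 lie at chr13:119690101-119690350 on the plus strand, those of Cyp51 at chr5:4104698-4104947 on the minus strand and those of Msmo1 at chr8:64733579-64733828 on the minus strand. Each is written 5′ to 3′ in the direction of transcription. Capitals mark 5 motifs searched on both strands: TCACNCCAC (a sterol regulatory element core), CCAAT (the NF-Y box), GGGCGG (the Sp1 box), and AACAATG and AACAAAG (SOX-type boxes).
Hmgcs1: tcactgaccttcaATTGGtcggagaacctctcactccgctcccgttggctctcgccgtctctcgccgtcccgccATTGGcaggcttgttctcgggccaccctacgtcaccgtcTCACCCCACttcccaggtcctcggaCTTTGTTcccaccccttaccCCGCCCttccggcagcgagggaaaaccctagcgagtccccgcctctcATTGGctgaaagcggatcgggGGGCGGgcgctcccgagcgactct
Cyp51: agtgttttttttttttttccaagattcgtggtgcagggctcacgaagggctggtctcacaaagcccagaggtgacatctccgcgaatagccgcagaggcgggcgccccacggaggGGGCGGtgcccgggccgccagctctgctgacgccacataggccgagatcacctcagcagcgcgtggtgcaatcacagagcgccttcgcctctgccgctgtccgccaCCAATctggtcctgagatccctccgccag
Msmo1: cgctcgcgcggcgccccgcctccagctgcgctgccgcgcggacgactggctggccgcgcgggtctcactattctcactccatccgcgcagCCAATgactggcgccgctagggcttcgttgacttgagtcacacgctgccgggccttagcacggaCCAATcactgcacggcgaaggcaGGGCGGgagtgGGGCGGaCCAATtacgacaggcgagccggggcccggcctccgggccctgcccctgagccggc

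CCAAT was present in the windows of 10 of 12 sterol genes (83.33%), against 37.41% of all 32851 windows in the table. GGGCGG was present in 11 of 12 (91.67%), against 35.66% of all windows. It was also in 7 of 8 phospholipid, 4 of 5 regulator and 7 of 11 fatty acid windows, whereas CCAAT was in 2, 3 and 5 of them. TCACNCCAC was found in Hmgcs1 and, among the phospholipid genes, in Pcyt1a, against 1.24% of all windows. AACAAAG was found in Hmgcs1 and Hsd17b7, against 5.85% of all windows, and AACAATG in no member window, against 3.78%. In the 3 windows printed no match shared a base with another. Each member had 1 window, the nearest to its deposited start, while the shares of all windows took in every window, so the 2 are not chosen alike. The RefSeq start lay 453 bases from the deposited start for Pmvk and 21196 for Lpin1. A match describes letters only, and no binding was measured in these libraries. A motif that was not found is only not spelled this way in the window.

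Among the fatty acid genes Elovl6 fell most. Elovl6, the elongase that turns palmitate into stearate (chr3:129532386-129638493, mm10), had 6.55 FPKM in TRAP and 17.4 in whole lung at E14, and 1.01 in TRAP and 4.995 in whole lung at E17. The difference was -1.76 on the log2 scale (SE 0.16, limma adjusted p = 0.00604), a 3.39-fold fall of FPKM + 1. It was the only member at least 2-fold lower at E17 in whole lung, where 1.23% of all records were. Fads2 had 84.1 FPKM in TRAP and 63.9 in whole lung at E14, and 51.5 in TRAP and 33.3 in whole lung at E17 (log2 -0.81, SE 0.10, adjusted p = 0.0137). Its neighbour on chromosome 19, Fads1, the desaturase that acts after it, had 41.7 FPKM in TRAP and 51.01 in whole lung at E14, and 24.99 in TRAP and 37.1 in whole lung at E17 (log2 -0.58). The pair that makes polyunsaturated fatty acids was thus lower at E17 in both fractions, with Fads2 on the TRAP side and Fads1 on the whole lung side at both stages.

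Chain building enzymes were also lower. Acaca, the acetyl-CoA carboxylase, had 10.95 FPKM in TRAP and 8.56 in whole lung at E14, and 7.104 in TRAP and 4.93 in whole lung at E17 (log2 -0.62, limma adjusted p = 0.0383). Fasn, the fatty acid synthase, had 73.04 FPKM in TRAP and 24.03 in whole lung at E14, and 50.9 in TRAP and 18.4 in whole lung at E17 (log2 -0.44, limma adjusted p = 0.0436). For Fasn the gap between the fractions was wider than that between the stages, and the stage call was lost in 6 of 9 alternatives. Acsl3, an acyl-CoA synthetase of the endoplasmic reticulum and lipid droplets, was the sixth gene to fall, a call lost in 5 of 9 alternatives (log2 -0.53, SE 0.11, adjusted p = 0.0369).

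No fatty acid gene passed upward, but 5 of the 14 were higher at E17 in both fractions. Me1, the malic enzyme that supplies NADPH, had 8.55 FPKM in TRAP and 13.6 in whole lung at E14, and 28.1 in TRAP and 17.8 in whole lung at E17. Its difference was 1.61 in TRAP and 0.37 in whole lung, and the joint estimate of 0.99 did not pass (SE 0.29, limma adjusted p = 0.0728). The acyl-CoA synthetase Acsl4, which prefers arachidonic acid, had 7.61 FPKM in TRAP and 5.19 in whole lung at E14, and 13.7 in TRAP and 6.82 in whole lung at E17 (log2 0.55, limma adjusted p = 0.0727). Acsl1, another member of that family, had 3.49 FPKM in TRAP and 2.98 in whole lung at E14, and 4.94 in TRAP and 5.47 in whole lung at E17. Elovl1, an elongase of very long chains, and Elovl5, an elongase of polyunsaturated chains, differed by 0.35 and 0.13. Elovl5 had 25.03 FPKM in TRAP and 30.7 in whole lung at E14, and 30.2 in TRAP and 30.8 in whole lung at E17. Acly, the ATP citrate lyase, Scd1 and Scd2 had joint estimates of -0.36, -0.30 and -0.13, and none of them passed.

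In the phospholipid branch 8 of 9 tested genes were higher at E17 in both fractions on the deposited scale, beside 37.6% of all records, while after rescaling to a common total 4 of 9 estimates were negative, with a median of 0.10 against -0.23 over all records. Agpat2, the acyltransferase that makes phosphatidic acid (chr2:26593057-26604417, mm10), had 19.6 FPKM in TRAP and 11.9 in whole lung at E14, and 41.3 in TRAP and 19.9 in whole lung at E17 (log2 0.87, SE 0.13, adjusted p = 0.0186). E17 TRAP was the highest of the 4 libraries and E14 whole lung the lowest, with the other pair side by side. Chka, the choline kinase that opens phosphatidylcholine synthesis, had 12.98 FPKM in TRAP and 11.7 in whole lung at E14, and 19.8 in TRAP and 16.1 in whole lung at E17 (log2 0.50, limma adjusted p = 0.0451). Its call was lost in 8 of 9 alternatives, with the estimate between 0.24 and 0.53.

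Some phospholipid genes differed more between the stages in 1 fraction than in the other. Chpt1, the choline phosphotransferase of the last step, had 7.08 FPKM in TRAP and 13.03 in whole lung at E14, and 20.2 in TRAP and 16.3 in whole lung at E17. The E17 level was 2.62-fold that of E14 in TRAP and 1.23-fold in whole lung as FPKM + 1, but the joint estimate of 0.84 did not pass (limma adjusted p = 0.0833). Dgat2, which makes triacylglycerol, did the reverse. It had 5.68 FPKM in TRAP and 6.76 in whole lung at E14, and 7.503 in TRAP and 17.1 in whole lung at E17, so the whole lung library at E17 stood apart (log2 1.22 in whole lung, 0.35 in TRAP, limma adjusted p = 0.0719 for both).

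The remaining phospholipid genes did not pass. Pcyt1a, the phosphocholine cytidyl transferase that limits the rate of phosphatidylcholine synthesis, had 9.97 FPKM in TRAP and 13.5 in whole lung at E14, and 13.9 in TRAP and 16.7 in whole lung at E17 (log2 0.36). Gpam, the mitochondrial glycerol-3-phosphate acyltransferase, had 6.17 FPKM in TRAP and 9.16 in whole lung at E14, and 7.96 in TRAP and 10.3 in whole lung at E17. Cept1, the choline and ethanolamine phosphotransferase, had 7.94 FPKM in TRAP and 10.7 in whole lung at E14, and 10.1 in TRAP and 11.7 in whole lung at E17. Each of the 3 genes was higher at E17 in each fraction without passing the test. Dgat1, the other triacylglycerol synthase, stayed between 8.95 and 10.3 FPKM. Lpin2, a phosphatidate phosphatase like Lpin1, had 8.77 FPKM in TRAP and 10.2 in whole lung at E14, and 8.64 in TRAP and 6.87 in whole lung at E17 and was the only phospholipid gene lower at E17 in both fractions.

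The regulators split. Srebf2, the SREBP of the sterol genes (chr15:82147269-82204960), had 62.8 FPKM in TRAP and 49.4 in whole lung at E14, and 38.3 in TRAP and 39.1 in whole lung at E17 (log2 -0.51, SE 0.12, adjusted p = 0.0475). This fall passed in 1 of 9 alternatives, with the estimate between -0.79 and -0.47. Insig2, which retains SCAP in the endoplasmic reticulum, had 8.41 FPKM in TRAP and 8.54 in whole lung at E14, and 13.5 in TRAP and 12.1 in whole lung at E17 (log2 0.54, SE 0.13, adjusted p = 0.0462). Its rise also passed in 1 of 9 alternatives. Scap had 34.4 FPKM in TRAP and 24.9 in whole lung at E14, and 26.2 in TRAP and 18.8 in whole lung at E17 (log2 -0.38, limma adjusted p = 0.0594). Srebf1, the SREBP of the fatty acid genes, had 31.4 FPKM in TRAP and 18.4 in whole lung at E14, and 31.1 in TRAP and 22.2 in whole lung at E17, and Insig1 had 22.4 FPKM in TRAP and 25.7 in whole lung at E14, and 23.3 in TRAP and 25.8 in whole lung at E17. For these last 2 genes the stage estimates were 0.12 and 0.03.

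**Figure D2:**
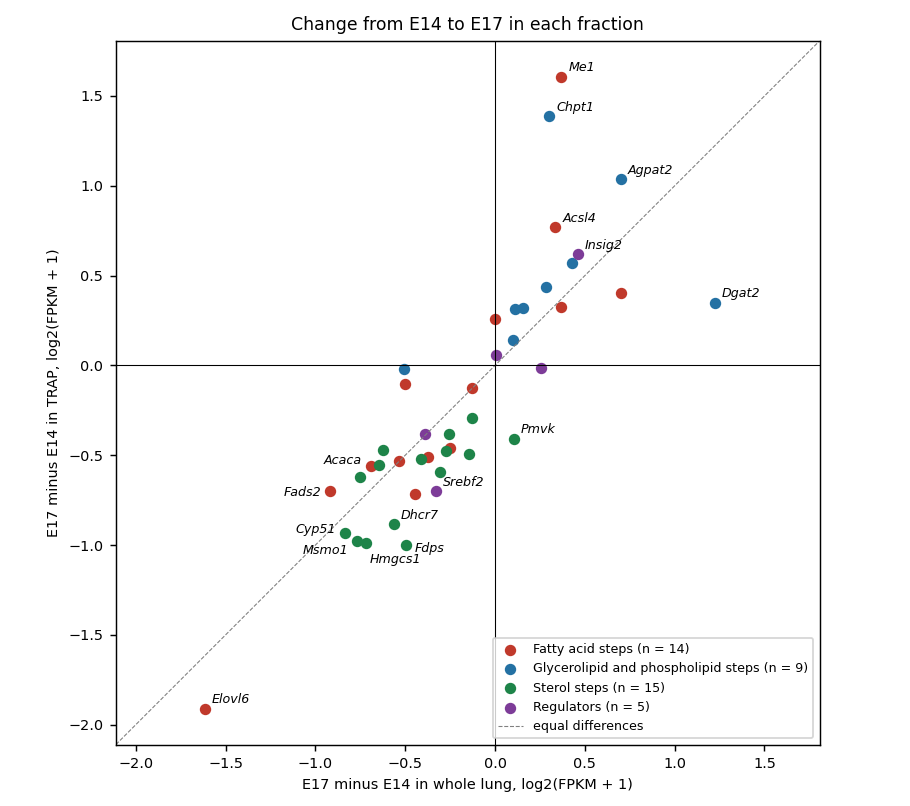
Difference between E17 and E14 on the log2(FPKM + 1) scale in whole lung (horizontal) and in TRAP (vertical), 1 library per stage and fraction, for the 43 genes tested, coloured by role. The sterol genes lie at the lower left except Pmvk (0.10, -0.41), Elovl6 lies lowest (-1.62, -1.91), and Me1 and Chpt1 lie far above the diagonal of equal differences.

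Over single libraries, which carry no test, 3 members were at least 2-fold higher at E17 in TRAP (Me1, Chpt1 and Agpat2) against 4.55% of all records, and 2 at least 2-fold lower (Elovl6 and Fdps) against 1.82%. In whole lung 1 member was at least 2-fold higher (Dgat2) against 4.67%. All 7 alveolar type 2 markers rose between the stages, their summed level going from 545 to 12842 FPKM in TRAP and from 115 to 3446 in whole lung, with none at 0. Of 4 lipid-storing fibroblast markers tested 3 rose, and Lpl did not pass. The sum of all 5 listed went from 118 to 248 FPKM in whole lung and from 41.0 to 76.5 in TRAP. Tcf21 alone went from 78.8 to 183 FPKM in whole lung and from 18.4 to 47.5 in TRAP. Erythroid markers went from 6239 to 13176 FPKM in whole lung and from 2071 to 3326 in TRAP (2 of 4 rose), endothelial markers from 128 to 229 and from 9.77 to 19.3 (2 of 4 rose), and 3 of 8 epithelial markers rose. The part of these cell types in the differences of the lipid genes was not tested, and in bulk RNA fewer cells of a type and less RNA per cell cannot be told apart.

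The E16 wild-type TRAP libraries, set beside E14 and E17 TRAP with no test, gave a stage between them. They also lay outside both in other genes. Erythroid markers summed to 258.5 and 257.7 FPKM at E16, against 2071 and 3326 in E14 and E17 TRAP. Sox9 was at 35.9 and 36.4 FPKM, against 63.9 and 68.5. Stage and other differences between these sets of libraries cannot be told apart. For 10 of the 15 sterol genes both E16 values lay between the E14 and the E17 value, as for 26.7% of all records tested. Cyp51 went from 16.4 at E14 through 11.5 and 12.5 at E16 to 8.15 FPKM at E17, Hmgcs1 from 42.4 through 35.1 and 35.3 to 20.8, and Msmo1 from 17.9 through 14.6 and 14.5 to 8.57. Sqle, at 39.3 and 40.5 FPKM, and Pmvk, at 30.3 and 33.7 FPKM, also lay between. Mvk and Mvd lay above both other stages and Hsd17b7 below both, at 2.98 and 2.29 FPKM.

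Both E16 values lay between E14 and E17 for 5 of 14 fatty acid genes, among them Elovl6 and Me1 (20.7 and 21.98 FPKM), and below both for 6. Fasn was one of those below, at 31.8 and 29.1 FPKM against 73.0 and 50.9 in E14 and E17 TRAP. Fads2 was at 57.5 and 49.9 FPKM and Acaca at 8.403 and 7.19. Among phospholipid genes Agpat2 (42.7 and 45.1 FPKM) and Chpt1 (22.8 and 21.3) lay above both their E14 and their E17 level. Dgat2 (6.13 and 7.04 FPKM) and Pcyt1a (11.7 and 10.7) lay between the stages. Insig1 and Insig2 were above both other stages, at 33.5 and 32.9 FPKM and 16.8 and 16.3 FPKM.

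The second comparison asked which lipid synthesis mRNAs were higher or lower in the ribosome pulldown of labelled cells than in whole lung. Content of the labelled cells, loading on ribosomes and effects of the pulldown cannot be told apart in it. Fasn stood out on the TRAP side and Elovl6 on the whole lung side at both stages. Of the 43 members tested, 10 were higher in TRAP and 2 lower, where 23.6% of all 12320 records were called higher and 17.1% lower. By role, 5 of 14 fatty acid genes were higher and 2 lower, 1 of 9 phospholipid genes and 2 of 15 sterol genes were higher and none lower, and 2 of 5 regulators were higher. The test was limma on the same 4 libraries with stage as an additive term, so the error is the disagreement between E14 and E17. For members lower in TRAP, the counts of 0 were 3 for phospholipid genes, 1 for sterol genes and 0 for regulators at an unadjusted p under 0.05, and 1, 0 and 0 by limma-voom. Rescaled to a common total, 1 member was higher and 4 lower, beside 546 records higher and 2921 lower, where the deposited scale gave 2910 and 2105, and with no filter on low values limma called 0 of all records.

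Fasn (chr11:120805958-120824547, mm10) had 73.04 FPKM in TRAP and 24.03 in whole lung at E14, and 50.9 and 18.4 at E17. The difference was 1.49 on the log2 scale, 2.82-fold as FPKM + 1 (SE 0.10, limma adjusted p = 0.000855). Other enzymes of the route from citrate to desaturated fatty acids were higher by less. Acly had 61.5 FPKM in TRAP and 41.04 in whole lung at E14, and 44.4 in TRAP and 34.3 in whole lung at E17 (log2 0.47), and Scd2 and Fads2 differed by 0.41 and 0.50. Acsl4 was higher in TRAP by 0.48 at E14 and 0.91 at E17 (joint log2 0.69). These 4 genes had limma adjusted p values from 0.015 to 0.0212. The calls of Acly and Scd2 were each lost in 4 of 9 alternatives.

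Elovl6 was lower in TRAP, by -1.28 at E14 and -1.58 at E17 (log2 -1.43, SE 0.16, adjusted p = 0.00246). Its E14 whole lung level of 17.4 FPKM was the highest of the 8 libraries, and its E17 TRAP level of 1.01 FPKM the lowest. Fads1 was lower by -0.42 (limma adjusted p = 0.0329), a call lost in 5 of 9 alternatives. Thus an elongase and a desaturase were on the whole lung side, while the desaturases Fads2 and Scd2 were on the TRAP side. The other 7 fatty acid genes did not pass, with estimates from -0.16 for Elovl5 to 0.39 for Acaca.

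Agpat2 was the phospholipid gene higher in TRAP (log2 0.85, SE 0.13, adjusted p = 0.00594). It was 1.60-fold higher at E14 and 2.02-fold at E17 as FPKM + 1. Dgat2 was the lowest of this group (-0.65, limma adjusted p = 0.0691), with -0.22 at E14 and -1.09 at E17. Gpam (-0.42), Pcyt1a (-0.33), Cept1 (-0.29) and Chpt1 (-0.25) had negative estimates, and Chka (0.21), Dgat1 (0.06) and Lpin2 (0.05) positive ones. None of these 8 genes passed. On the deposited scale Chpt1 and Me1 lay on opposite sides of whole lung at the 2 stages. Chpt1 went from -0.80 at E14 to 0.29 at E17 and Me1 from -0.61 to 0.63.

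Among sterol genes Sqle (log2 0.64, SE 0.10, adjusted p = 0.00666) and Fdps (log2 0.62, SE 0.14, adjusted p = 0.0199) were higher in TRAP. For Fdps the difference was 0.87 at E14 and 0.37 at E17, and the call was lost in 4 of 9 alternatives. Pmvk had the next largest estimate (0.47, limma adjusted p = 0.0553), carried mostly by E14. Cyp51, Msmo1, Hmgcs1 and Hsd17b7 had negative estimates from -0.15 to -0.35 and did not pass. The group median was 0.15, against 0.05 over all records, and it turned to -0.19 after rescaling to a common total, which moved the median of all records to -0.30. Srebf1 (log2 0.61, SE 0.12, adjusted p = 0.0123) and Scap (log2 0.45, SE 0.10, adjusted p = 0.019) were the regulators higher in TRAP. Srebf1 was 0.74 higher at E14 and 0.47 at E17, while Srebf2 (0.15), Insig1 (-0.17) and Insig2 (0.06) did not pass.

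**Figure D3:**
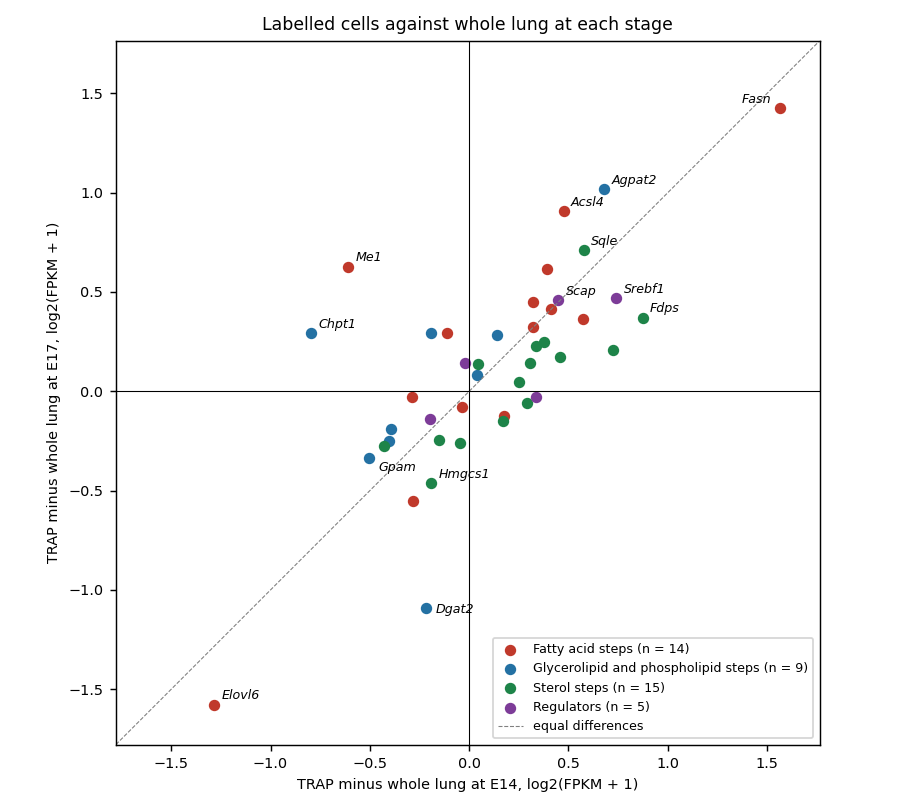
Difference between TRAP and whole lung on the log2(FPKM + 1) scale at E14 (horizontal) and E17 (vertical), 1 library per stage and fraction, for the 43 genes tested, coloured by role. Fasn lies at the upper right (1.56, 1.42), Elovl6 at the lower left (-1.28, -1.58), and Me1 and Chpt1 lie at the upper left, lower in TRAP at E14 and higher at E17.

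At E14 alone 1 member was at least 2-fold higher in TRAP (Fasn) and 1 lower (Elovl6), against 6.01% and 9.43% of all records. At E17 there were 2 higher (Fasn and Agpat2) and 2 lower (Elovl6 and Dgat2), against 4.83% and 8.91%. Of 4 tested lipid-storing fibroblast markers 2 (Plin2 and Tcf21) were lower in TRAP. The sums of all 5 listed, with Tcf21 the largest term, were 41.0 and 76.5 FPKM in TRAP against 118 and 248 in whole lung. All 6 mesenchymal markers were lower, with sums of 51.8 and 46.6 FPKM against 812 and 925, and none of them was at 0. The part of these cells in the whole lung levels of Elovl6, Fads1 and Dgat2 was not tested.

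The third comparison asked how these mRNAs differed in labelled cells when Sox9 was mutated. Among the members, the elongases Elovl1, Elovl5 and Elovl6 and the acyl-CoA synthetases Acsl1 and Acsl4 were higher in the mutant. Both stearoyl-CoA desaturases were lower, while most sterol and phospholipid genes did not pass. The synthetase Acsl3 (log2 0.07) did not pass, nor did Acsl5 (0.07) and the elongase Elovl7 (-0.24), which are outside the members. Elovl2 and Elovl4, also outside them, missed the minimum mean. Elovl2 had 1.31 and 1.47 FPKM in wild-type and 0.40 and 0.63 in mutant libraries, and Elovl4 0.80 and 0.69 against 0.38 and 0.29. Of 43 members 8 rose and 7 fell, where 17.4% of all 11872 records were called higher and 14.3% lower. Both mutant values lay above both wild-type values in 36.8% of these records and below both in 33.3%. By role, 6 fatty acid genes rose and 2 fell, 2 phospholipid genes rose, 3 sterol genes fell and 2 regulators fell. The test was limma on log2(FPKM + 1) over the 4 E16 TRAP libraries, 2 per genotype, with 2 residual degrees of freedom. No sterol gene or regulator rose (0 at an unadjusted p under 0.05, and 0 by limma-voom), and no phospholipid gene fell (1 and 0). Rescaled to a common total, 0 members passed in either direction, with 175 of all records called higher, 57 lower and 745 at an unadjusted limma p under 0.05. Centring on the median gave 7 members higher and 12 lower, beside 1749 records higher and 2336 lower, where the deposited scale gave 2063 and 1692.

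Elovl5 changed most clearly. Elovl5 (chr9:77917365-77984519, mm10) had 21.02 and 22.2 FPKM in wild-type and 48.1 and 47.6 FPKM in mutant libraries. Its means were 21.6 ± 0.853 FPKM in wild-type and 47.9 ± 0.371 FPKM in mutant libraries (SD, n = 2 each), a 2.16-fold rise of FPKM + 1 (log2 1.11, SE 0.05, adjusted p = 0.000129 by limma). Acsl4, on the X chromosome (chrX:142317993-142390535), had 6.98 and 6.67 FPKM in wild-type and 16.3 and 15.1 FPKM in mutant libraries (log2 1.09, SE 0.07, adjusted p = 0.000269). Acsl1 had 6.501 and 5.39 FPKM in wild-type and 12.4 and 13.7 FPKM in mutant libraries (log2 1.02, SE 0.10, adjusted p = 0.00121). In each of the 3 genes both mutant values lay above both wild-type values, as in 36.8% of all records. They also lay above the other 4 libraries of the series.

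Smaller rises were seen for Acly and Elovl1. Acly had 40.3 and 38.6 FPKM in wild-type and 57.8 and 54.98 FPKM in mutant libraries (log2 0.50, SE 0.05, adjusted p = 0.00157). On inferred fragments, which for Acly do not follow counting error alone, limma-voom gave 0.10 (adjusted p = 0.341) and the call was lost. Elovl1 had 20.7 and 19.7 FPKM in wild-type and 28.98 and 29.95 FPKM in mutant libraries (log2 0.52, SE 0.06, adjusted p = 0.00159), and its locus overlaps Cdc20, between which fragments could have been divided. Elovl6 had 3.903 and 2.42 FPKM in wild-type and 4.98 and 7.96 FPKM in mutant libraries (log2 0.84, SE 0.24, adjusted p = 0.0474). Its replicates spread more than those of the other genes. The call was lost in 7 of 14 alternatives, among them those without wild-type replicate 2 or without mutant replicate 2.

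The stearoyl-CoA desaturases Scd1 and Scd2 went the other way, while the desaturases Fads1 and Fads2 did not pass. Scd1 (chr19:44394450-44407709, mm10) had 3.56 and 4.1 FPKM in wild-type and 1.29 and 1.05 FPKM in mutant libraries. Its means were 3.83 ± 0.381 FPKM in wild-type and 1.17 ± 0.169 FPKM in mutant libraries (SD, n = 2 each), a 2.23-fold fall of FPKM + 1 (log2 -1.16, SE 0.11, adjusted p = 0.00117 by limma), on 112 to 476 fragments a library. Scd2, which lies beside Scd1 on chromosome 19, had means of 174 ± 3.89 FPKM in wild-type and 131 ± 3.68 FPKM in mutant libraries (SD, n = 2 each) (log2 -0.41, SE 0.05, adjusted p = 0.00216). All mutant values of both genes lay below all wild-type values, as in 33.3% of all records, and below the other 4 libraries as well. After rescaling to a common total the difference of Scd2 turned to 0.05, while that of all records moved to a median of 0.41. On inferred fragments, which for Scd2 do not follow counting error alone either, limma-voom gave -0.10 (adjusted p = 0.427) and the call was lost.

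Neither Acaca nor Fasn, which build the chain before the elongases act, passed. Fasn had 31.8 and 29.1 FPKM in wild-type and 30.8 and 28.7 FPKM in mutant libraries, with a 95% interval of -0.20 to 0.13 on the log2 difference. Fads2, at 53.4 and 54.5 FPKM in the mutant, and Me1, at 23.8 and 23.6, had estimates of 0.01 and 0.15. Acaca had 8.403 and 7.19 FPKM in wild-type and 5.83 and 6.37 FPKM in mutant libraries (log2 -0.31, limma adjusted p = 0.0575). Both mutant values of Acaca lay below the wild-type values, as in 33.3% of all records, but the difference did not pass. Fads1 (-0.11) and Acsl3 (0.07) did not pass either.

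In the phospholipid branch Gpam rose most. Gpam (chr19:55069734-55099447, mm10) had 5.72 and 5.64 FPKM in wild-type and 10.6 and 9.73 FPKM in mutant libraries (log2 0.74, SE 0.07, adjusted p = 0.00122). Chka had 10.7 and 11.02 FPKM in wild-type and 16.4 and 13 FPKM in mutant libraries (log2 0.40, SE 0.11, adjusted p = 0.0409), with mutant replicate 1 apart from the other 3 libraries, and the call was lost without that library or without either wild-type library. Lpin2 had 9.0 and 7.87 FPKM in wild-type and 10.1 and 10.3 FPKM in mutant libraries (log2 0.25), and Cept1 had 8.39 and 7.69 FPKM in wild-type and 6.84 and 6.41 FPKM in mutant libraries (log2 -0.24). For both genes the genotypes did not overlap, where 36.8% of all records had both mutant values above and 33.3% below. The limma adjusted p values of 0.0686 and 0.0621 missed the threshold. Chpt1 had 22.8 and 21.3 FPKM in wild-type and 27.5 and 24.3 FPKM in mutant libraries (log2 0.22), Agpat2 41.8 and 43.8 FPKM in the mutant (-0.04), Dgat2 5.85 and 6.61 (-0.07), Pcyt1a 11.6 and 13.04 (0.13) and Dgat1 10.2 and 11.8 (0.14). None of these 5 genes passed.

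Sterol genes were slightly lower in the mutant on the deposited scale, with 12 of 15 estimates negative and a median of -0.10 against 0.01 over all records, and on the scale of a common total all 15 were positive with a median of 0.32 against 0.41. Fdps had 74.6 and 79.4 FPKM in wild-type and 67.9 and 61.96 FPKM in mutant libraries (log2 -0.24, SE 0.06, adjusted p = 0.036). Dhcr7 had 13.1 and 12.7 FPKM in wild-type and 11.1 and 10.6 FPKM in mutant libraries (log2 -0.22, SE 0.06, adjusted p = 0.042). Idi1 had 37.3 and 38.5 FPKM in wild-type and 32.6 and 32.04 FPKM in mutant libraries (log2 -0.22, SE 0.05, adjusted p = 0.0216). In these 3 genes both mutant values lay below both wild-type values, as in 33.3% of all records. Their means of FPKM + 1 differed by 1.17- to 1.18-fold. The count of 3 fell to 0 to 2 when 1 library was left out, and over 15 alternatives the calls of Fdps and Dhcr7 were each lost or reversed in 9 and that of Idi1 in 6.

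For the other 12 sterol genes no difference passed. Nsdhl had 8.93 and 7.13 FPKM in wild-type and 6.604 and 6.83 FPKM in mutant libraries (log2 -0.22), with wild-type replicate 1 above the rest. Cyp51 had 11.5 and 12.5 FPKM in wild-type and 10.3 and 10.5 FPKM in mutant libraries (-0.18), Sqle 35.3 and 36.5 FPKM in the mutant (-0.15), and Hmgcs1 32.2 and 32.1 (-0.13). Msmo1 had 14.2 and 13.5 FPKM in the mutant, Pmvk 32.04 and 29.6, and Hsd17b7 2.53 and 3.84. Fdft1 (0.09), Mvd (0.08) and Hsd17b7 (0.19) were the 3 with positive estimates. In 8 of the 15 genes both mutant values lay below both wild-type values, and in 1 (Fdft1) above, where 33.3% of all records tested lay below in that way and 36.8% above.

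Among the regulators Insig1 and Srebf1 fell. Insig1 (chr5:28071412-28078662) had 33.5 and 32.9 FPKM in wild-type and 27.8 and 25.5 FPKM in mutant libraries (log2 -0.31, SE 0.06, adjusted p = 0.014). Srebf1 had 26.7 and 27.4 FPKM in wild-type and 24.1 and 22.99 FPKM in mutant libraries (log2 -0.19, SE 0.05, adjusted p = 0.0451). Over 15 alternatives the call of Insig1 held in 11 and that of Srebf1 in only 5. Both mutant values lay below both wild-type values in each of these genes, as in 33.3% of all records. The count of 2 fell to 0 or 1 when a library was left out. Srebf2 had 55.3 and 51.5 FPKM in wild-type and 59.3 and 57.9 FPKM in mutant libraries (log2 0.13), Scap had 30.6 and 31.3 FPKM in wild-type and 29.05 and 29.5 FPKM in mutant libraries (-0.08), and Insig2 had 16.8 and 16.3 FPKM in wild-type and 18.5 and 17.4 FPKM in mutant libraries (0.11). Thus Srebf2 and Insig2 lay above the wild type and Srebf1, Scap and Insig1 below, on the deposited scale. On the scale of a common total all 5 estimates were positive, with a median of 0.37 against 0.41 over all records.

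**Figure D4:**
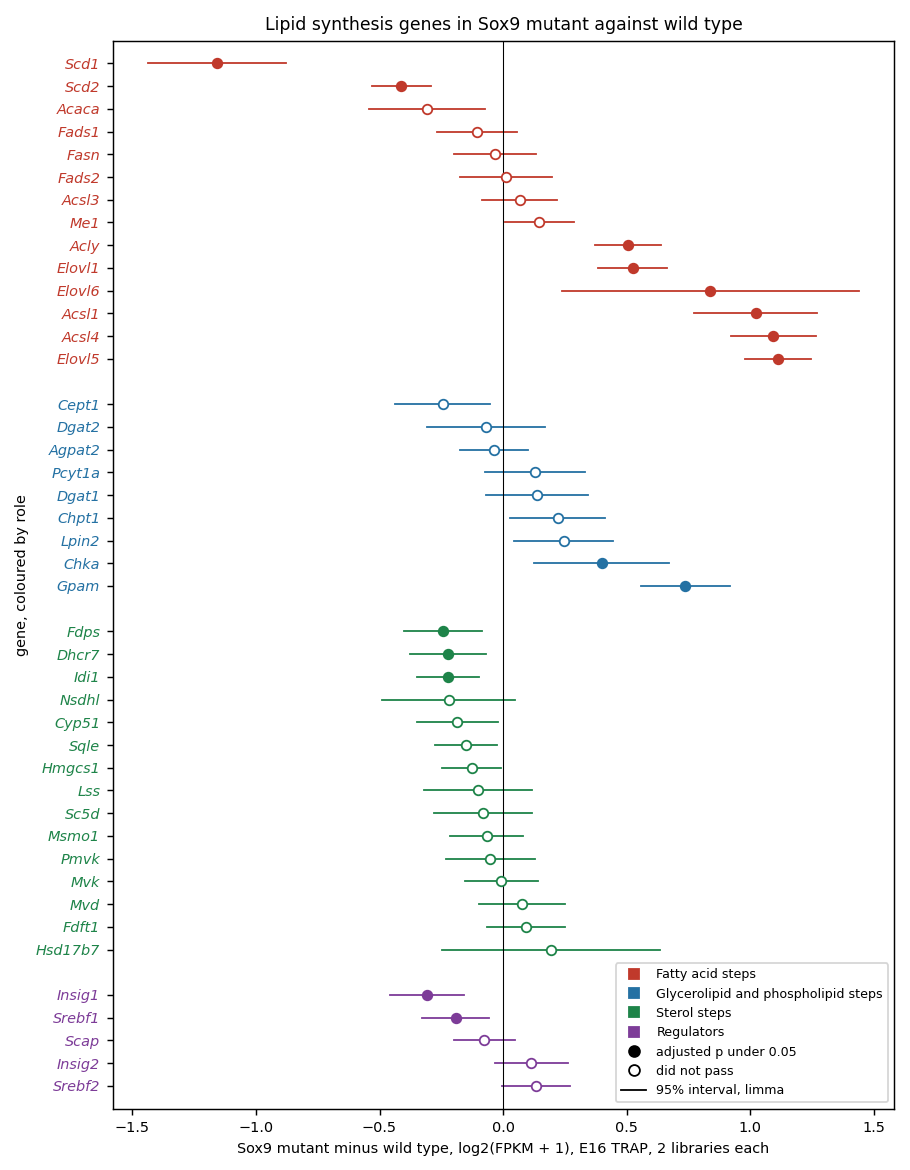
Difference between Sox9 mutant and wild type on the log2(FPKM + 1) scale for the 43 genes tested, grouped and coloured by role, with 95% intervals from limma (2 libraries per genotype) and filled points for genes with an adjusted p under 0.05. Scd1 lies at -1.16 and Elovl5, Acsl4 and Acsl1 lie between 1.02 and 1.11, while the sterol genes lie between -0.24 and 0.19.

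Markers of other states moved with genotype. The 7 alveolar type 2 markers split, with 4 higher and 2 lower. Their sum was 4060 and 4718 FPKM in wild-type and 1594 and 1318 FPKM in mutant libraries, with none at 0. Most of that sum was Sftpc, surfactant protein C, at 3788 and 4487 FPKM in wild-type and 176 and 162 FPKM in mutant libraries. The other 6 summed to 272 and 231 FPKM in wild-type and 1418 and 1156 FPKM in mutant libraries, with Sftpb the largest term. Sftpb, surfactant protein B, had 168 and 137 FPKM in wild-type and 1263 and 1033 FPKM in mutant libraries. Abca3, Slc34a2 and Napsa were also higher. Lamp3 was lower like Sftpc, at 6.53 and 5.64 FPKM in wild-type and 0.47 and 0.93 FPKM in mutant libraries (log2 -2.07). Lpcat1 did not pass (0.01). The 8 epithelial markers summed to 1366 and 1361 FPKM in wild-type and 1936 and 1874 FPKM in mutant libraries, 6 of them higher and 1 lower. The 4 plasma protein genes summed to 3.16 and 3.25 FPKM in wild-type and 98.2 and 124.3 FPKM in mutant libraries, and all 4 rose. The part of these shifts in the differences of the lipid genes was not tested.

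Beyond the 44 members, 58 other genes of the same pathways were listed, and 52 of them were in the tables. In the mutant 3 of 40 tested rose and 7 fell, where 17.4% of all records were called higher and 14.3% lower. Cds1, which makes CDP-diacylglycerol for phosphatidylinositol and cardiolipin, had 2.93 and 3.02 FPKM in wild-type and 14.5 and 15.7 FPKM in mutant libraries (log2 2.02, SE 0.07, adjusted p = 6.33e-05 by limma). Etnk2 (an ethanolamine kinase, -0.54), Agpat5 (-0.45) and Pemt, which methylates phosphatidylethanolamine to phosphatidylcholine (-0.42), fell. Between the stages 5 of 43 rose and 5 fell, where 9.51% of all records were called higher and 6.36% lower. Nr1h3, the liver X receptor alpha, had 1.06 FPKM in TRAP and 4.33 in whole lung at E14, and 4.21 in TRAP and 13.9 in whole lung at E17 (log2 1.41), and Cds1 also rose (1.11). Elovl4, an elongase of very long chains, fell by 1.14.

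Between TRAP and whole lung 15 of 43 were higher and 6 lower, where 23.6% of all records were called higher and 17.1% lower. Acsl5, an acyl-CoA synthetase, had 61.9 FPKM in TRAP and 25.2 in whole lung at E14, and 105 in TRAP and 42.3 in whole lung at E17 (log2 1.28). Lpcat1, which remodels phosphatidylcholine into the saturated form of surfactant, had 42.4 FPKM in TRAP and 23.7 in whole lung at E14, and 96.5 in TRAP and 41.97 in whole lung at E17 (log2 1.00). Lpin3 was higher (1.02) and Nr1h3 lower (-1.44). Lpcat1 is also counted among the alveolar type 2 markers above.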

How the data were processed

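The authors' tables, 1 for each library, give FPKM with lower and upper bounds for 24487 records, per the file headers. The submitters' processing notes name TopHat2 2.0.14, Bowtie2 2.2.3, Cufflinks 2.2.1, Cuffnorm and the build mm10. How library totals were set, and whether strand was counted, is not given in the sources used. Tables were joined by record, since their row orders differ. Fragments were inferred from the bounds, read as 2 standard errors, which behave as counting error alone for 26 of the 44 members. Of the members 19 overlap another RefSeq gene, so their fragments may be shared.

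The two-sided test was limma (3.58.1, R 4.3.3) with an eBayes trend on log2(FPKM + 1), a scale that understates changes of low genes. Records averaging at least 1 FPKM over the fitted libraries entered it, and p was adjusted over all of them (Benjamini-Hochberg, 0.05). The mutant fit used the 4 E16 libraries; the stage and fraction fits used the 4 libraries of E14 and E17 in 1 additive model, so they share all libraries. Single-library contrasts carry no test, and members at least 2-fold apart as FPKM + 1 were counted. A fall or rise in the text means an adjusted p under 0.05.

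The members, role groups, pathway and marker lists were chosen with earlier results of these data known. Values are given in every library for the 5 regulators and, per role group and fit, the 4 members with the largest difference at a mean of at least 5 FPKM in the higher group, and for members that go against their group. Of the other pathway genes the 4 with the largest difference per fit are named, except what is not reported here. Promoter sequences are RefSeq's (GRCm38.p6), with motifs counted in windows of 300 bases. The fitting steps were run on simulated libraries with known changes and an equal library scale. That run does not cover the scale differences between the real libraries. Alternatives changed the pseudocount, filter, scaling, variance trend, count model, replicate block and libraries.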

Additional observations from a re-analysis of the deposited data

Results flagged for a closer look

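Me1 and Chpt1 stood out because their difference between TRAP and whole lung pointed one way at E14 and the other way at E17, with the deposited confidence bounds of the fractions apart at both stages. For Me1 the log2 difference of FPKM + 1 was -0.61 at E14 and 0.63 at E17. For Chpt1 it was -0.80 at E14 and 0.29 at E17. With 1 library per stage and fraction the difference between the stages was not tested. These values are on the deposited scale and were not recomputed on a common total. The FPKM totals were 738841 in TRAP and 659798 in whole lung at E14, and 1048337 and 683610 at E17. At a common total both E17 differences would be lower, so the change of sign may depend on the scale. Me1 had 8.55 FPKM in TRAP and 13.6 in whole lung at E14, and 28.1 in TRAP and 17.8 in whole lung at E17, and Chpt1 had 7.08 FPKM in TRAP and 13.03 in whole lung at E14, and 20.2 in TRAP and 16.3 in whole lung at E17. Both genes overlap another RefSeq gene (A330041J22Rik and Sycp3), and the bounds of both moved between libraries by more than counting error alone would give.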

How the results depend on the processing

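With 1 or 2 libraries a group, the tests lean on pooled variances, and in the fits of E14 and E17 no library can be left out. Rescaling to a common FPKM total moved the median of all records to 0.41 in the mutant, -0.30 for TRAP and -0.23 between stages. Under it the mutant differences of Scd2 (0.046), Idi1 (0.22), Fdps (0.21), Dhcr7 (0.20), Srebf1 (0.25) and Insig1 (0.14) turned positive, each below that median. The cause of the changes below was not tested. Of 8 members higher in the mutant, the count was 5 with no filter and 0 with the common total. Of 7 lower, the count was 2 with no filter, 0 with the common total, 3 with records under 200 bases left out before rescaling, 12 with centring on the median, 4 without a variance trend and 4 with the replicate block. Leaving out 1 library gave 6 to 8 higher and 2 to 5 lower, with 2 without wild-type replicate 1 or wild-type replicate 2 and 3 without mutant replicate 2. The replicate numbers are shared by 2 pairs only, and deviations of replicate 1 in the 2 genotypes were uncorrelated over records (r = 0.0072). What the shared numbers stand for is not stated, and this correlation alone cannot exclude a pairing. The block cost 4 member calls and added 1.

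Of 10 members higher in TRAP, the count was 0 with no filter, 1 with the common total and 6 by limma-voom on inferred fragments. Of 2 lower, it was 0 with no filter, 4 with the common total, 6 with short records left out, 1 with centring and 1 without a trend. Of 3 higher at E17, it was 1 with a pseudocount of 0.1 or 5 FPKM, 0 with no filter, 0 with the common total, 1 with centring and 1 without a trend. Of 15 lower at E17, it was 9 with a pseudocount of 5, 0 with no filter, 8 with the common total, 5 without a trend and 7 by limma-voom. With no filter limma called 0 of all records in the fits of E14 and E17, although 5746 (TRAP) and 3618 (stage) had an unadjusted p under 0.05. Members at least 2-fold lower at E17 in TRAP numbered 2, or 5 with a pseudocount of 0.1, 4 with centring and 4 with short records left out. With short records left out 1 rather than 2 was 2-fold higher in TRAP at E17, and 2 rather than 1 were 2-fold lower at E17 in whole lung.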

Other observations

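Some further genes of the listed pathways passed limma's test and were picked out after their values were seen. Acat2, the cytosolic acetoacetyl-CoA thiolase, had 69.4 FPKM in TRAP and 58.6 in whole lung at E14, and 50.9 in TRAP and 44.4 in whole lung at E17 (log2 -0.42, limma adjusted p = 0.041). Between TRAP and whole lung, Tecr, the last enzyme of the elongation cycle, had 309 FPKM in TRAP and 163 in whole lung at E14, and 284 in TRAP and 152 in whole lung at E17 (log2 0.91, SE 0.09, adjusted p = 0.0019 by limma). Slc25a1, the mitochondrial citrate carrier upstream of Acly, had 57.7 FPKM in TRAP and 32.2 in whole lung at E14, and 51.6 in TRAP and 34.03 in whole lung at E17 (log2 0.70). At E16 it had 61.8 and 58.2 FPKM in wild-type and 47.1 and 46.2 FPKM in mutant libraries (-0.36).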
